A study of Mus musculus with 10 samples.

Results

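The regions described here are places far from any protein-coding gene where HA-tagged SOX2 was found on the chromatin of mouse embryonic stem cells, with no second SOX2 region of both libraries close by. There were 293 of them among 2369 regions with a peak in both SOX2 libraries (12.4%, 95% Wilson interval 11.1 to 13.8), and 5115 regions in either library. They were chosen by SOX2 peak calls, by the ranks of the SOX2 fold that placed each summit, and by position. Overlapping peaks were merged, the summit had to lie over 100 kb from every RefSeq protein-coding gene body, and no other region of both libraries had an edge within 12500 bp. SOX2 values are therefore given as a description, with no test. Knock-in cells with an HA tag on SOX15 or on SOX2 were grown in 2i/LIF medium and fixed with formaldehyde. SOX15-HA was precipitated in 3 libraries and SOX2-HA in 2, and 5 input libraries belong to the series and were not used here. The clone of each line is not given. Nothing says that the replicates came from different cultures, and their spread may be technical. All SOX15 and SOX2 lists hold the authors' peaks, one list per library, on the build mm10.

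SOX2 is a transcription factor with an HMG box that binds the minor groove of DNA, often beside OCT4, and holds embryonic stem cells in the pluripotent state. SOX15 belongs to the same family. A gene desert is a long stretch between protein-coding genes. Deserts often lie beside genes of development and can hold enhancers that act over long distances. Such stretches also hold genes for long noncoding RNAs (lncRNAs) and pseudogenes, so a desert as defined here is empty of protein-coding genes alone. Which gene a region acts on was not measured, and genes are named below as neighbours.

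Of the 293 regions, 1 overlapped a promoter window of the RefSeq promoter table (250 bases before to 50 after a gene start, GRCm38.p6), and its sequence is shown because it is the place where letters can be set beside a desert peak. It is the start of the lncRNA gene C330004P14Rik on the plus strand, chr10:15791527-15791826. The nearest protein-coding genes were Nmbr, a receptor for neuromedin B, at 1020 kb and Cited2, a transcriptional coregulator, at 1932 kb. The fold over background in the authors' lists was 6.43 and 15.5 in SOX2 replicates 1 and 2. The summit, at position 15791531, lay 246 bases before the gene start, and the region covered 187 of the 300 bases.
C330004P14Rik: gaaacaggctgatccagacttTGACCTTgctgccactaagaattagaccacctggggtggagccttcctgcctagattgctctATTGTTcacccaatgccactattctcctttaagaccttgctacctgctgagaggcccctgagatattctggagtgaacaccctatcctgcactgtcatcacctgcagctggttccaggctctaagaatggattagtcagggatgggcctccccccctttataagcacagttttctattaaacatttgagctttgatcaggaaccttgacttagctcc
Capitals mark 2 matches. The first is the minus-strand match of AAGGTCA, a site of the nuclear receptor ESRRB, a factor of naive pluripotency; its centre lay 20 bases from the summit, and 4.72% of 32851 promoter windows hold it on either strand. The second is ATTGTT, the inner letters of many SOX sites, 81.5 bases from the summit and present in 10.7% of windows; it was searched after the letters had been read. The SOX hexamers CATTGT and CTTTGT (28.6% of windows hold either one), the octamer ATGCAAAT of OCT4 (1.74%), the TEAD site GGAATG (14.7%) and the KLF site GGGNGTG (29.2%) were searched on both strands and are not in this window, which says only that these letters are missing from it. Sequence of the other 292 regions was not analysed here.

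The desert regions covered a wide range of SOX2 fold. In SOX2 replicate 1 the lowest, median and highest fold was 3.21, 8.66 and 39.6, and in replicate 2 it was 3.75, 10.7 and 61.0. The 2076 other regions had medians of 8.70 and 11.2. The percentile rank of fold within a list, averaged over both lists, had a median of 57.3 at desert regions and 59.997 at the others. Widths were similar too, with median peak widths of 308 and 375 bp in replicates 1 and 2 at desert regions and 310 and 401 bp at the others. The highest ranks were less common in the deserts, which was not tested. A mean percentile rank of fold over 90 was held by 22 desert regions (7.51%) and by 252 others (12.1%). Folds are the authors', and each list has its own scale, so a fold in one library set beside that in the other describes the lists and not a change in binding.

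The libraries placed most desert summits close together. The rule favours this, since every region of both libraries, in a desert or elsewhere, was built from overlapping peaks. Summits of replicates 1 and 2 lay a median of 24 bp apart, and 226 of the 293 (77.1%) were within 50 bp of each other, against 1675 of the 2076 other regions (80.7%). The listed fold was the higher one in replicate 2 at 198 of the 293 desert regions and at 1467 of the 2076 others. The log2 folds of the libraries had a Pearson correlation of 0.607 across desert regions and 0.639 across the others, given as a description, since all points share the same pair of libraries. Of replicate 1 peaks in deserts 89.7% had a partner in replicate 2, and of replicate 1 peaks elsewhere 88.7%. In the other direction 48.1% of replicate 2 peaks in deserts and 49.4% elsewhere had a partner. The listed folds were farthest apart, as a ratio, at a region between Slitrk5 and Gpc5 on chromosome 14, with a fold of 3.21 in replicate 1 and 21.4 in replicate 2.

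**Figure D1:**
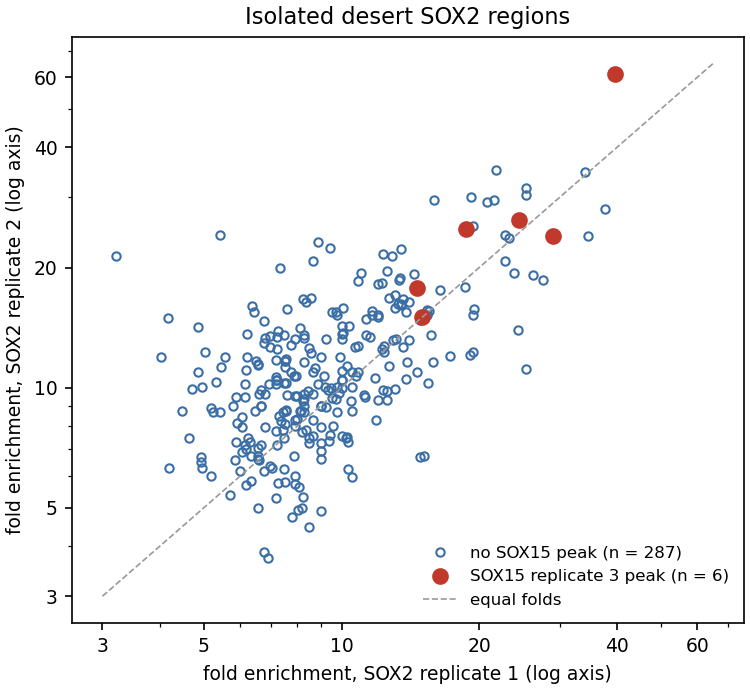
Fold enrichment of the 293 isolated desert SOX2 regions in SOX2 replicate 1 (horizontal, log axis) against replicate 2 (vertical, log axis); each point is 1 region, filled points have a peak in SOX15 replicate 3, and the dashed line marks equal folds. The 6 filled points have folds of at least 14.6 in replicate 1 and at least 15 in replicate 2.

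The strongest desert region lay between Akr1d1, a steroid reductase gene of bile acid synthesis, and Trim24, a gene for a chromatin reader (chromosome 6, 37689507 to 37690266). Its fold was 39.6 in replicate 1 and 61.0 in replicate 2, and its summit was 115.0 kb from Akr1d1. The next in rank was 143.8 kb from Pik3c3, a lipid kinase gene of autophagy, with folds of 34.2 and 34.8 (chromosome 18, 30121321 to 30122130). The third stood between Slc8a1, a sodium-calcium exchanger gene, and Pkdcc, with folds of 37.6 and 28.0 (chromosome 17, 82306278 to 82306822). These 3 were high in both libraries, which follows from ordering regions by their mean rank over both.

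The rest of the 10 highest-ranked regions had folds between 21.5 and 34.7 in replicate 1 and between 24 and 35.1 in replicate 2. A region with folds of 25.4 and 31.7 lay 259.1 kb from Diaph3, a formin gene (chromosome 14, 86395996 to 86396495). Between Tox3, itself an HMG-box gene, and Chd9, a chromatin remodeller gene, the folds were 25.3 and 30.4 (chromosome 8, 90670708 to 90671246). A region 585.6 kb from Ccdc85a had 34.7 and 24 (chromosome 11, 27799771 to 27800476). Each of these stood clear of the median of its list in both libraries, which their choice by mean rank fixed in advance. Near Ttc29, a sperm tail gene, the folds were 29.1 and 24 (chromosome 8, 78068038 to 78068849). At 230.8 kb from Fhit they were 21.8 and 35.1 (chromosome 14, 9318880 to 9319570), and between Phkb and Abcc12 they were 24.4 and 26.4 (chromosome 8, 86393786 to 86394366). The tenth, between Sash1 and Samd5, had 21.5 and 29.6 (chromosome 10, 9085452 to 9085955).

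The lowest-ranked desert regions had low folds in both libraries, which likewise follows from the ordering by mean rank. The lowest rank was held by a region between Man1a and Tbc1d32, with folds of 5.69 and 5.38 (chromosome 10, 55537472 to 55537809). The next lay 184.7 kb from Tars, with 4.19 and 6.27 (chromosome 15, 11584165 to 11584479). The third from the bottom lay inside Lncenc1, a lncRNA gene named for its expression in embryonic stem cells, with 5.18 and 6.01 (chromosome 13, 97494826 to 97495230).

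Summits lay a median of 235.2 kb from the nearest protein-coding gene, with a range of 100.2 to 1860 kb. The distance was under 200 kb for 124 regions, 200 to 500 kb for 125 and over 500 kb for 44. Median folds were alike at all distances: 8.50, 8.88 and 8.58 in replicate 1 and 10.2, 10.9 and 10.9 in replicate 2, from the nearest to the farthest of these groups. The farthest region, 1860 kb from Cntnap5b, an adhesion gene of neurons, had folds of 6.06 and 7.96 (chromosome 1, 102350903 to 102351192). A pair of regions between Stim2 and Pcdh7 lay 1671 and 1594 kb from the nearer gene, with folds of 4.84 and 10.9 in the first and 8.50 and 12.6 in the second. At 1535 kb from Pcdh9 the folds were 12.0 and 9.29, and at 1220 kb from Klhl29 they were 8.29 and 9.62. None of these 5 was among the 10 highest-ranked regions.

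Values at the limits of the rule are given as a description. The members nearest to the distance limit were 100.2 kb from Ext1 (folds 6.14 and 7.18), 100.3 kb from Cited2 (7.49 and 6.26) and 100.6 kb from Slc44a1 (13.9 and 11.6). Isolated regions that just missed included one 99.3 kb from Car2 (10.4 and 13.1) and one 99.1 kb from Cnr1 (15.2 and 15.9). For isolation, the closest members were 16.2 kb from the next region on chromosome 16, and the desert regions that came nearest to the limit from outside were 7.07 kb apart, near Paqr3.

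Most of the desert regions had other annotation within 100 kb. The nearest annotated gene of any kind lay a median of 30.7 kb from the summit, and 47 of the 293 regions (16.0%) were over 100 kb from every annotated gene. The summit fell inside a lncRNA gene at 45 desert regions (15.4%, 95% Wilson interval 11.7 to 19.9), against 131 of 857 isolated intergenic regions at most 100 kb from a gene (15.3%, interval 13 to 17.8). These shares lay within each other's intervals. Over all 2369 regions the share was lower, with 262 inside a lncRNA gene (11.1%), and at isolated regions inside genes it was 6.01%. In the part of the deserts where a member could lie, lncRNA genes covered 9.83% of the bases. The 45 regions lay in 42 lncRNA genes, and 34 of the 45 were in genes with a bare Gm number, of which nothing is said here.

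**Figure D2:**
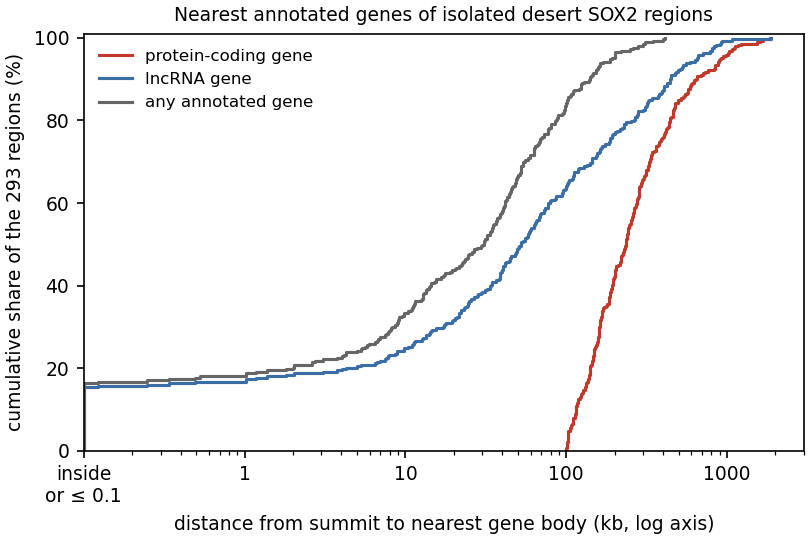
Cumulative share of the 293 desert regions (vertical, %) by distance from the SOX2 summit to the nearest protein-coding, lncRNA or any annotated gene body (horizontal, kb, log axis, with summits inside a gene at the left edge). The protein-coding curve starts at 100 kb by construction, while the medians for lncRNA genes and any gene are 52.3 and 30.7 kb.

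Some named lncRNA genes held more than 1 desert region or a strong one. The gene 5730522E02Rik held 2, with folds of 10.0 and 10.4 at the first (chromosome 11, 26103726 to 26104153) and 9.79 and 8.67 at the second. A330033J07Rik, beside Id4, also held 2, with 9.78 and 15.2 at the first (chromosome 13, 48160234 to 48160638) and 8.48 and 4.47 at the second. The region inside 6530403H02Rik had 12.3 and 21.6 (chromosome 3, 120843596 to 120844121). These genes were named after their values were seen.

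SOX2 regions were sparser in deserts than in the rest of the genome. Between protein-coding genes there were 1537 gaps of over 200 kb, whose inner parts, over 100 kb from either gene, summed to 738.4 Mb, or 28.4% of the 2600 Mb spanned by genes. These inner parts held 312 regions of both libraries (13.2% of the 2369), of which 19 were clustered and 293 isolated. This came to 4.23 regions per 10 Mb, against 11.05 per 10 Mb elsewhere. Assembly gaps and bases to which reads cannot be mapped were not taken out, and their part in this difference was not tested. The share of regions called in 1 SOX2 library alone that lay in deserts was close to that of both libraries, at 12.0% for replicate 1 and 13.7% for replicate 2.

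The desert regions were spread over 230 of the 1537 deserts. A single region was found in 180 deserts, 2 in 42 and 3 or more in 8. Longer deserts held one more often: 100 of 281 deserts over 1 Mb did (35.6%), against 14 of 480 under 300 kb (2.92%). A member must lie over 100 kb from both genes, so the rule leaves less room for one in a short desert. Whether length matters beyond this room was not tested. The longest desert, 4542 kb between Pcdh20 and Pcdh9, held 2. By chromosome, the number of members per 10 Mb of inner desert ran between 0.861 on chromosome X (5 regions in 58.1 Mb) and 6.15 on chromosome 11 (17 in 27.7 Mb). The next lowest was chromosome 17 with 2.65. Chromosome X had few SOX2 regions of any kind, 49, of which the members were 10.2%, and this share ran between 4.11% on chromosome 19 and 22.5% on chromosome 12.

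The most crowded desert was the 709.0 kb between 1810013L24Rik and Grin2a, a glutamate receptor gene, on chromosome 16. It held 7 members. The strongest, 224.9 kb from 1810013L24Rik, had folds of 19.2 and 30.1 (9083560 to 9084077 on that chromosome). The weakest in replicate 1, at 532.3 kb, had 5.42 and 8.71, and the weakest in replicate 2, at 291.0 kb, had 7.22 and 7.16. The other members of this desert had folds of 8.76 to 12.4 in replicate 1 and 10.6 to 12.7 in replicate 2. Between Cdh6 and Cdh9, a pair of cadherin genes, 4 members lay across 3552 kb, with folds of 4.64 to 14.8 and 6.71 to 13.2.

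**Figure D3:**
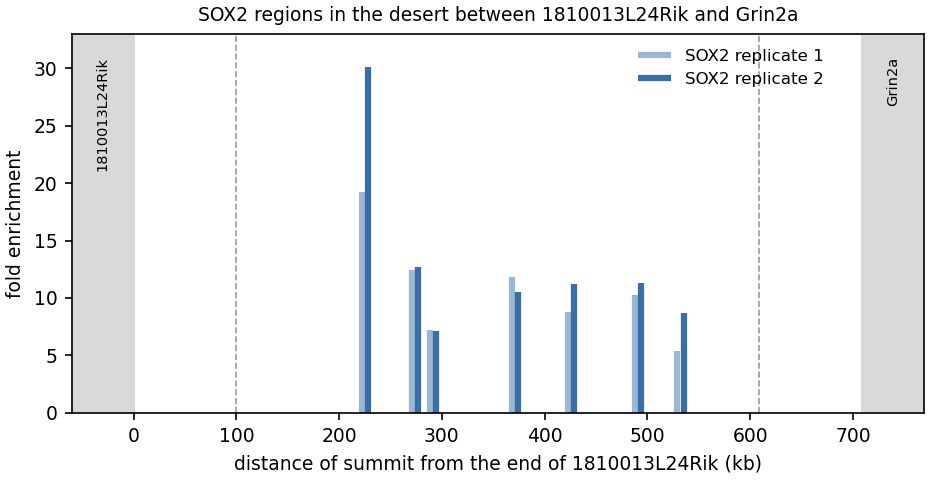
Fold enrichment (vertical) of the 7 SOX2 regions in the desert between 1810013L24Rik and Grin2a, by distance of the summit from the end of 1810013L24Rik (horizontal, kb); each pair of bars is 1 region in SOX2 replicates 1 and 2, the grey bands are the flanking genes and the dashed lines lie 100 kb inside them. The highest pair, 19.2 and 30.1, is at 224.9 kb, and the others lie between 5.42 and 12.7.

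The Akr1d1 to Trim24 desert was short and crowded. Its inner part measured 95.9 kb and held 3 members. Besides the strongest desert region of all, they had folds of 11.3 and 14.9 in the first (chromosome 6, 37729246 to 37729611) and 14.0 and 13.2 in the second (chromosome 6, 37767564 to 37767953).

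Several neighbours of the desert regions are genes of pluripotency and development. Of 2598 protein-coding genes beside a desert, 385 (14.8%) were the next gene to a member within 1 Mb. Of the naive pluripotency list 3 of 7 genes beside a desert were such neighbours, of the core pluripotency list 5 of 8, of SOX family genes 1 of 8, of neural regulators 5 of 15, of patterning factors 13 of 33, and of adhesion and axon guidance genes 20 of 58. Sox2, which has a desert neighbour, was counted in the core pluripotency list and not in the SOX family list. The housekeeping list had no gene beside a desert, 0 of 18. Over all protein-coding genes of the annotation 2598 of 21896 were beside one, so few would be counted in a list of this size. The deserts had a median length of 421.2 kb over all, 391.9 kb beside naive pluripotency genes and 1221 kb beside adhesion genes, and the part of length in these shares was not tested. Per 10 Mb of inner desert, the 203 listed genes together had 3.92 members beside them, against 3.97 over all deserts. By list, and counting members at any distance in those deserts, the density was 16.4 for naive pluripotency (5 members), 8.43 for core pluripotency (6), 8.90 for patterning factors (20), 3.77 for neural regulators (7), 2.52 for adhesion (31) and 2.07 for the SOX family (1). The lists were chosen with earlier results of these data known, so the counts are a description.

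Among naive pluripotency genes, Tbx3, a repressor of differentiation, had 2 desert neighbours, at 295.5 kb with folds of 13.5 and 22.3 (chromosome 5, 119374645 to 119375296) and at 614.9 kb with 8.10 and 14.1. The region at 614.9 kb lay nearer to Med13l, at 290.2 kb. Nr5a2, a nuclear receptor gene, had 2, at 418.3 kb with folds of 4.18 and 14.9 and at 458.1 kb with 6.76 and 14.7. Klf5, a Krüppel-like factor gene, had 1 at 196.9 kb, with 15.1 in replicate 1 and 6.73 in replicate 2. The listed fold was higher in replicate 2 at 198 of the 293 desert regions, and each list has its own scale.

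Among core pluripotency genes, Sox2 itself had a desert region 740.4 kb away, with folds of 10.0 and 10.5 (chromosome 3, 35392659 to 35393036). The nearest protein-coding gene of that region was Atp11b, at 361.2 kb. Sall1, a zinc finger gene of stem cells, had 2, at 112.9 kb with 6.18 and 11.1 and at 227.7 kb with 15.4 and 10.3. The region 132.3 kb from Mycn, a proliferation factor gene, had 6.25 and 7.46. The one 596.5 kb from Myc had 8.19 and 7.74, with A1bg nearer, at 467.5 kb. The one 711.8 kb from Jarid2, a gene for a partner of Polycomb, had 6.57 and 11.4, with Cd83 nearer, at 216 kb. In this group no region reached the 10 highest-ranked.

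Among regulators of development, the strongest region was 102.6 kb from Tshz1, a zinc finger gene of patterning, with folds of 20.8 and 29.2 (chromosome 18, 83908764 to 83909210). Id4, an inhibitor of helix-loop-helix factors, had 3 members, at 100.7, 130.3 and 405.5 kb, with folds of 9.78 and 15.2, 8.48 and 4.47, and 7.49 and 13.6 in replicates 1 and 2. The Irx1, Irx2 and Irx4 homeobox genes shared 4 members, with folds of 7.19 to 12.3 in replicate 1 and 5.72 to 11.8 in replicate 2. Of neural regulators, the region 637.1 kb from Pou3f3, a POU factor gene, had 13.5 and 16.1, and the one 619.0 kb from Zeb2, a zinc finger homeobox gene, had 13.5 and 16.2. The region 938.2 kb from Sox9 had 8.29 and 11.6, with Gm11677 nearer, at 117.7 kb.

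Among adhesion and axon guidance genes, Pcdh9, a protocadherin gene, had a strong region at 186.9 kb, with folds of 27.6 and 18.6 (chromosome 14, 92826535 to 92827027). Tenm4, a teneurin gene, had one at 690.9 kb with 22.8 and 24.2 (chromosome 7, 95480059 to 95480529). Robo1, a receptor for SLIT proteins, had one at 192.0 kb with 15.3 and 15.6. The members within 1 Mb of the other 17 genes of this list had folds of 4.64 to 13.1 in replicate 1 and 6.18 to 17.1 in replicate 2.

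SOX15 was rarely called on the desert regions. SOX15 replicate 3 has the list that reaches to the weakest peaks, with a smallest −log10 q-value of 1.31, against 2.76 and 2.03 in replicates 1 and 2, and its calls are given apart for that reason. SOX15 replicates 1, 2 and 3 had a peak at 0, 0 and 6 of the 293 desert regions, against 72, 71 and 179 of the 2076 other regions. Over all 2369 regions the shares were 3.04%, 3.0% and 7.81%, and 8.02% had a peak of any SOX15 library. A count of 0 of 293 allows a share of up to 1.02% by the rule of 3 counts, and the 95% Wilson interval reaches 1.29%.

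In SOX15 replicate 3 the share was 2.05% at desert regions (95% Wilson interval 0.942 to 4.39) and 8.62% at the others (7.49 to 9.91), which differ by -6.57 points (two-sided Fisher's exact test, adjusted p = 7.43e-05 over 12 tests). Against isolated intergenic regions at most 100 kb from a gene, 69 of 857 with a peak (8.05%), the difference was -6.00 points (Fisher's exact test, adjusted p = 0.000303). Against isolated regions inside genes, 59 of 949 (6.22%), it was -4.17 points (Fisher's exact test, adjusted p = 0.00473). Replicates 1 and 2 differed from the other regions by -3.47 and -3.42 points (Fisher's exact tests, adjusted p = 0.000303 each). They did not pass against isolated regions inside genes, where the differences were -1.05 and -1.26 points (adjusted p = 0.129 and 0.0874 in Fisher's exact test). Regions are not replicates of a condition, so these p-values describe each library at hand, and intervals cover counting error only.

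Histone genes are protein-coding, so the distance rule kept the desert regions away from them in advance. A summit within 1 kb of a gene for a small nuclear RNA, a small nucleolar RNA or a histone was found at 0 of the 293 desert regions and at 58 of the 2076 others, 36 of them clustered. Without those regions, a setting added after the data were seen, the difference of SOX15 replicate 3 was -4.20 points (Fisher's exact test, adjusted p = 0.0106), while replicates 1 and 2 each had -0.942 points and no longer passed (adjusted p = 0.210 each). With noncoding genes also counted as bounds of a desert, 47 regions were left and no SOX15 library passed (Fisher's exact test, adjusted p = 1.0 each).

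**Figure D4:**
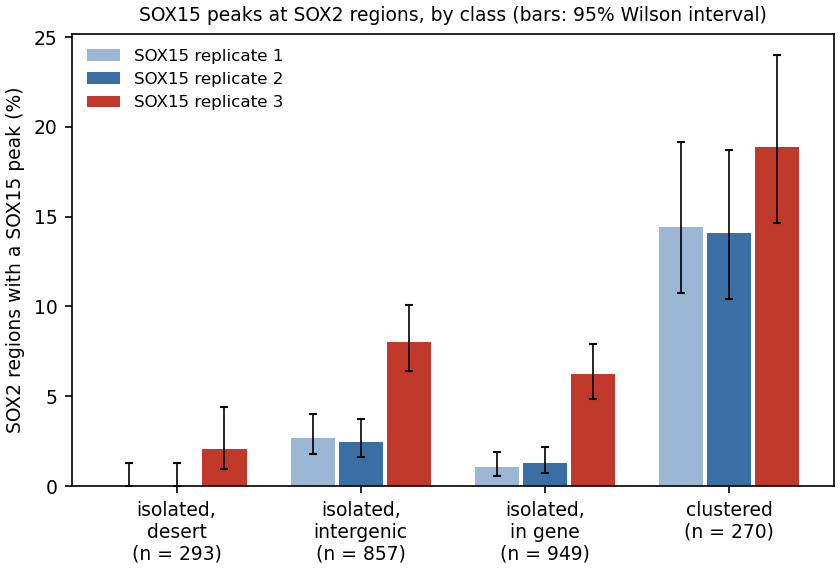
Share of SOX2 regions (vertical, %) with a peak of SOX15 replicate 1, 2 or 3, for isolated desert regions and, to their right, isolated intergenic regions, isolated regions inside genes and clustered regions; error bars are 95% Wilson intervals. The desert bars are at 0, 0 and 2.05%, and clustered regions reach 14.4%, 14.1% and 18.9%.

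All 6 desert regions with a peak were among those with SOX2 ranks in the top of 3 equal classes, where they made up 6.67% of 90 (interval 3.09 to 13.8), against 50 of 295 isolated intergenic regions (16.9%, 13.1 to 21.6) and 48 of 309 inside genes (15.5%, 11.9 to 19.99). In the middle class the counts were 0 of 109, 5 of 286 and 7 of 314, and in the lowest class 0 of 94, 14 of 276 and 4 of 326. Within the top class, desert regions differed from the other regions by -10.9 points in replicate 3 (Fisher's exact test, adjusted p = 0.0371). This setting was added after the data were seen.

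**Figure D5:**
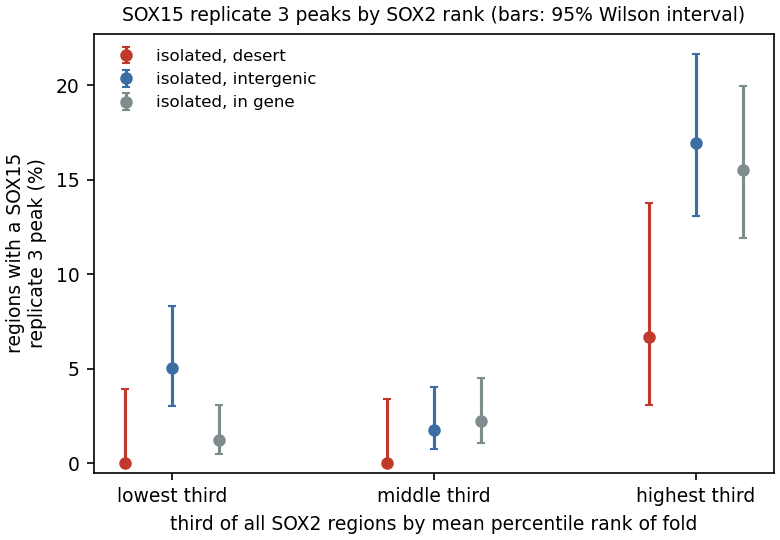
Share of SOX2 regions with a SOX15 replicate 3 peak (vertical, %) by class of mean SOX2 rank (3 classes of equal size) (horizontal), for isolated desert, isolated intergenic and isolated in-gene regions; bars are 95% Wilson intervals. In the top class the desert point is at 6.67%, under 16.9% and 15.5% for the other classes, and in the lower classes it is at 0.

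The strongest desert region, between Akr1d1 and Trim24, also had the highest SOX15 fold, 12.8 in replicate 3. Between Phkb and Abcc12 the SOX15 fold was 8.29. Beside Ofcc1 (chromosome 13, 39523751 to 39524376) it was 5.92, where the SOX2 folds were 18.7 and 25. These 3 had −log10 q-values of 21.0, 11.1 and 4.75. Near Gm11232 (chromosome 4, 71316496 to 71316985) the SOX15 fold was 5.63 and the SOX2 folds 14.6 and 17.8. Near Ttc29 it was 4.58, and near Shox2, a homeobox gene (chromosome 3, 66687146 to 66687495), it was 4.39, with SOX2 folds of 15 and 15. The 6 SOX15 summits lay 3 to 50 bp from the SOX2 summits. Their smallest −log10 q-value was 3.01. Where SOX2 and SOX15 peaks needed a −log10 q-value of at least 5, a replicate 3 peak was left at 3 of 282 desert regions. At the other regions it was left at 146 of 2022.

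Seen over whole lists, few SOX15 peaks lay in deserts, with an exception in 1 library. Summits over 100 kb from a protein-coding gene made up 2 of 217 peaks in SOX15 replicate 1 (0.922%), 55 of 672 in replicate 2 (8.18%) and 13 of 437 in replicate 3 (2.97%), beside 13% and 13.5% of the SOX2 peaks in replicates 1 and 2. Of the 55 in replicate 2, 0 were on a desert SOX2 region and 1 was on any SOX2 peak. In replicate 3, 6 of 13 were on a desert SOX2 region and 7 on any SOX2 peak. Replicate 2 thus had the most desert peaks of the SOX15 libraries and none on the desert SOX2 regions. Its list also met few SOX2 regions over the whole genome. Of all 2369 regions of both SOX2 libraries, 71 had a replicate 2 peak and 185 a replicate 3 peak, for lists of 672 and 437 peaks. Whether peaks in deserts differ from their whole list in this overlap was not tested.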

How the data were processed

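HA ChIP-seq peak lists of 2 SOX2 and 3 SOX15 libraries from mouse embryonic stem cells were used. The submitters' processing notes name Bowtie2, MACS2, deepTools and the build mm10 but no versions, and which control served peak calling is unknown here. In 1 list per library the authors deposited for every peak its fold over background (a ratio), the −log10 of its p-value and q-value, a summit offset and a whole-number score, 10 times the −log10 q-value rounded down. The lists give no read counts, so depth is unknown.

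Peaks were merged at an overlap of 1 bp, gaps were measured between region edges, and ranks are percentiles of fold within a list, averaged over the SOX2 libraries. Gene bodies were those of RefSeq on GRCm38.p6, which has the coordinates of mm10 (21627 protein-coding genes on 20 chromosomes). Two-sided Fisher's exact tests set SOX15 calls at desert regions against those at other regions, with Benjamini-Hochberg adjustment over 12 tests. The code was first run on simulated data with a planted difference larger than any reported here, which does not speak to smaller ones. Named regions are the 10 highest and 3 lowest in rank, the 5 farthest, those with a SOX15 peak, those nearest each limit, and neighbours of genes in 7 lists (203 of 203 genes found). The crowded deserts and the region with the folds farthest apart were picked after their values were seen. One region just outside the distance limit is not reported here. The members and lists were chosen with earlier results of these data known. Planned motif and repeat tests at the regions need the genome sequence, which was not used here, and they were left out. The work was done in Python 3.11.15 with scipy 1.17.1, pandas 2.3.3, numpy 2.4.6 and, for figures, matplotlib 3.10.9.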

Additional observations from a re-analysis of the deposited data

How the results depend on the processing

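In place of 293 regions (12.4%), the rule gave 452 (19.1%) at 50 kb from a gene, 169 (7.13%) at 200 kb, 47 (1.98%) with noncoding genes counted, and between 322 and 566 when either SOX2 library was left out (12.0% and 11.8%). With 50% reciprocal overlap, no isolation rule, 25 kb isolation, isolation from regions of either library, isolation measured from the summit or −log10 q-values of at least 5, it gave 269 to 312. No SOX15 difference changed sign under any of the settings run. In SOX15 replicates 1 and 2 the sign could hardly change, since 0 or 1 desert regions had a peak in every setting. With noncoding genes counted, the differences in SOX15 replicates 1, 2, 3 and any library were -3.10, -3.06, -3.63 and -3.84 points and did not pass; fewer regions were tested. Replicates 1 and 2 also lost their calls against regions inside genes (-1.05 and -1.26), without small RNA and histone genes (-0.942 each), in the top of 3 classes of SOX2 rank (-4.71 and -4.43), and against isolated intergenic regions 5 to 100 kb from a gene with those genes left out (-0.767 and -0.613), where replicate 3 passed with -3.78 points (Fisher's exact test, adjusted p = 0.0227); the last 3 settings were added after the data were seen, and the cause was not tested. Without SOX2 replicate 1 or 2 the differences ran from -1.79 to -5.42 points in SOX15 replicate 1, -1.66 to -6.24 in replicate 2, -3.32 to -8.71 in replicate 3 and -3.37 to -9.76 in any library, all passing. Without SOX15 replicates 1, 2 and 3 in turn, the difference in any library was -6.72, -6.77 and -3.61 points. The alternatives for motifs and masked repeats were not run. No paired analysis was possible because the tests compare regions within a library and fit no model across samples.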
